A study of Gallus gallus with 9 samples.

Results

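Chicken embryo myoblasts kept for 4 days in differentiation medium (DM) were compared with myoblasts collected just after serial plating (PM). The samples were chosen by their labels alone. They are 3 DM and 3 PM samples, 6 of the 9 in the study, and the remaining 3, from growth medium, were not used here. All 6 were passage 1 cells derived from skeletal muscle of chicken embryos, and the labels give no genotype, strain or embryonic age. DM cells had been moved to RPMI-1640 with 2% horse serum, a medium low in serum that lets myoblasts leave the cell cycle. PM cells had come through serial plating, a step that enriches myoblasts by letting faster-adhering cells settle first, and the growth medium of the study held 15% fetal bovine serum. Both media held penicillin and streptomycin. The labels give no serum percentage for PM cells. The groups therefore differ in days of culture and handling, and in serum and medium where PM cells were kept otherwise. The share of reads from the W chromosome and the number of features listed, both given at the end, also differed between the groups. These cannot be told apart. Total RNA was sequenced with Illumina libraries. The labels do not say whether replicates were separate cultures or embryos, so any p-value here describes the spread among these libraries alone, which may be technical.

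Myoblasts are mononucleated muscle precursors. When growth factors are withdrawn they stop dividing, express MYOG and MEF2 factors, fuse into multinucleated myotubes and assemble sarcomeres, the repeating units of thick and thin filaments that contract. The basic helix-loop-helix proteins MYF5, MYOD1, MYF6 and MYOG drive this program, and ID proteins hold it back by occupying their partners. Cultures from whole muscle can also carry fibroblasts, macrophages and other cells. In bulk RNA, fewer cells of a type and less RNA per cell cannot be told apart.

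The tables held 21893152 to 23519295 counted reads in DM libraries and 16052542 to 20981337 in PM libraries. Of 24881 Ensembl genes, 14235 had enough reads to be tested with edgeR's quasi-likelihood test, and 10176 (71.5%) passed an adjusted p of 0.05 by the Benjamini-Hochberg method and are referred to as called. Of the genes tested, 5104 were called higher in DM (35.9%) and 5072 lower (35.6%), so a call in one direction was common. The count of any list has to be set against these shares, and a split near them is no feature of that list. Changes of at least 2-fold were fewer, with 2257 genes higher (15.9%) and 1729 lower (12.1%). In the authors' FPKM, whose offset from the count scale is given below, all 3 DM values lay above all 3 PM values for 41.9% of tested genes. They lay below them for 33.1%. The median log2 fold change over all tested genes was 0.013, and its quartiles were -0.53 and 0.63. The first principal component held 87.5% of the variance and separated the groups. Pearson's r over log values of genes was 0.988 to 0.993 within a group and 0.890 to 0.905 for a DM and a PM library, where genes are not independent replicates. Levels below are the authors' FPKM, reads scaled to gene length and to the reads of the library, given per library or as mean ± SD over 3 libraries. Fold changes, DM over PM, come from the counts. The FPKM scale placed DM about 0.09 log2 units higher than the count scale did, so a small fold change can have the opposite sign to a small difference in FPKM. The question was which genes differ as chicken myoblasts differentiate. Markers of the labelled cell type were present, since in both groups the myogenic factor MYOD1, the muscle cadherin CDH15 (119 ± 12.5 in DM and 125 ± 12.8 FPKM in PM) and the muscle intermediate filament gene DES (142 ± 7.98 in DM and 155 ± 3.66 FPKM in PM) were expressed.

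**Figure D1:**
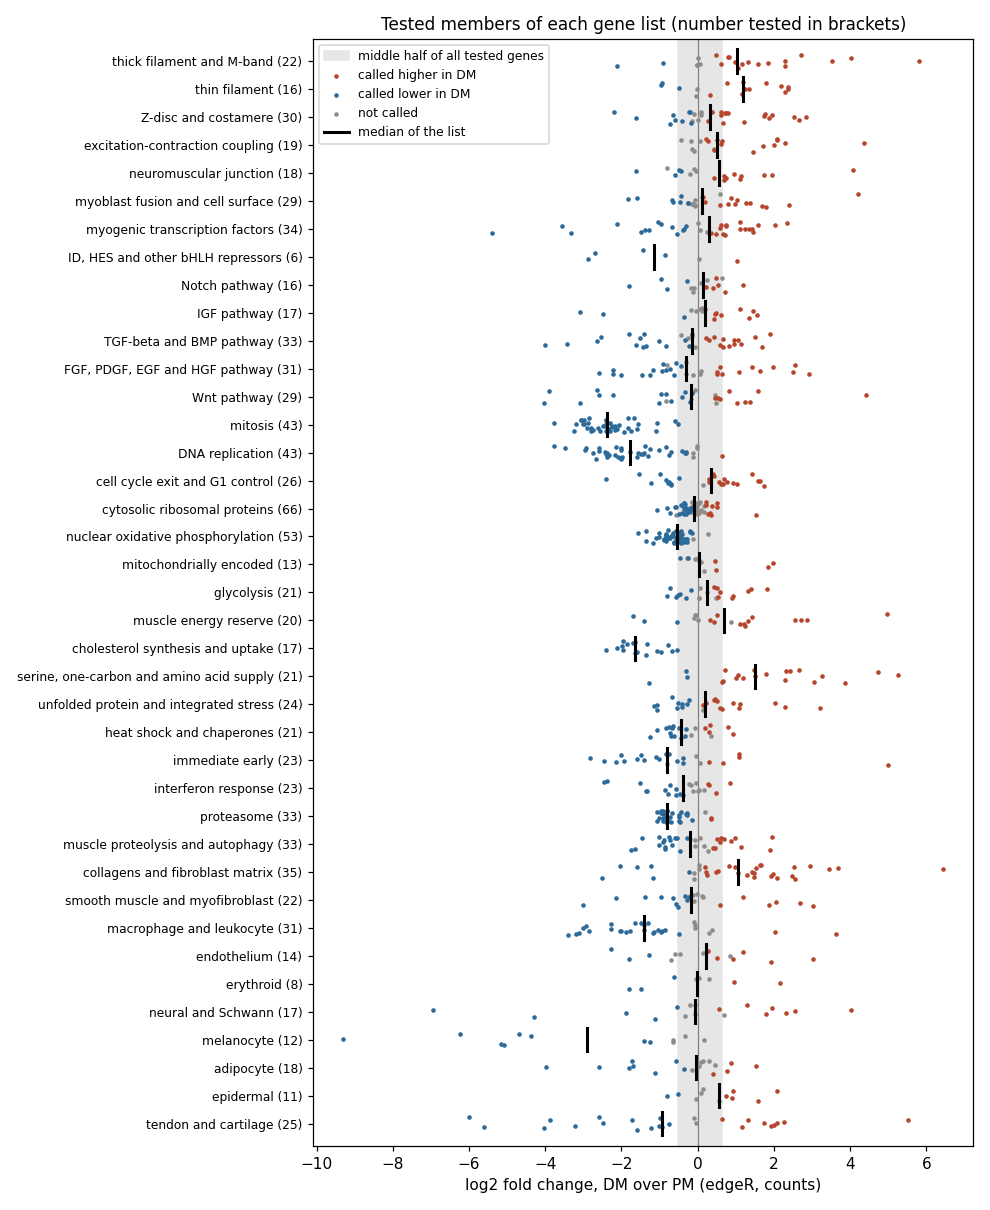
Log2 fold change of every tested member of the 39 gene lists, DM over PM, with 1 point per gene and a black bar at each list's median; the shaded band runs between the quartiles of all 14235 tested genes. The mitosis, DNA replication, cholesterol and melanocyte lists have medians at or below -1.63, and the serine list, the thin and thick filament lists and the collagen list have medians at or above 1.03.

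The myogenic regulatory factors split in direction. MYF5 (ENSGALG00000028091, chromosome 1, 40002758 to 40003972, plus strand), an early determination factor, had 34.1, 46.7 and 30.1 FPKM in DM, against 380.2, 421 and 416 FPKM in PM. Every DM library was below every PM library, and the gene was 11.7-fold lower in DM (log2 fold change -3.55, with an SE of 0.155, edgeR adjusted p = 2.33e-07). MYF6, also called MRF4, is its neighbour on the same strand (ENSGALG00000010936, chromosome 1, 39998073 to 39999566, plus strand). It had 12.9, 11.1 and 8.81 FPKM in DM, against 98.1, 106 and 103 FPKM in PM, again without overlap between the groups (log2 fold change -3.32, with an SE of 0.124, edgeR adjusted p = 1.8e-09). MYOD1, the determination factor that also acts in differentiation, had 158, 142 and 136 FPKM in DM, against 332, 321 and 344 FPKM in PM. It fell less than its relatives, to a level that was still high in DM (log2 fold change -1.29, with an SE of 0.0722, edgeR adjusted p = 1.47e-08). MYOG, the factor of terminal differentiation, had 298, 328 and 274 FPKM in DM, against 167, 183 and 180.5 FPKM in PM. All 3 DM libraries lay above the PM libraries, although MYOG was already abundant in PM (log2 fold change 0.67, with an SE of 0.0741, edgeR adjusted p = 6.09e-06). MEF2C, a MADS box partner of these factors, had 46.8, 48.4 and 53.4 FPKM in DM, against 10.4, 8.78 and 8.09 FPKM in PM, a rise of 5.11-fold (log2 fold change 2.35, with an SE of 0.0959, edgeR adjusted p = 9.54e-10). PAX3, a factor of migrating and embryonic muscle precursors, had 0.104, 0.0714 and 0.112 FPKM in DM, against 3.66, 3.87 and 4.28 FPKM in PM, a low level in PM and close to none in DM (log2 fold change -5.39, with an SE of 0.310, edgeR adjusted p = 1.85e-08).

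In the whole list of myogenic transcription factors, 17 were called higher and 14 lower of 34 tested, with a median log2 fold change of 0.297. The other MEF2 genes rose by less than MEF2C. MEF2D had 42.4 ± 1.94 in DM and 23.8 ± 0.8003 FPKM in PM and MEF2A had 49.97 ± 2.12 in DM and 31.3 ± 1.87 FPKM in PM, with log2 fold changes of 0.74 (edgeR adjusted p = 4.98e-07) and 0.58 (edgeR adjusted p = 2.61e-06). Homeobox factors and their cofactors were divided between the directions. EYA4, a cofactor of the homeobox factors SIX2 and SIX4, had 12.7 ± 1.54 in DM and 3.95 ± 0.108 FPKM in PM, and SIX4 had 12.05 ± 0.916 in DM and 4.13 ± 0.785 FPKM in PM, both higher in DM, whereas SIX2 had 36.9 ± 3.23 in DM and 71.0 ± 1.27 FPKM in PM and was lower. NFIX, a factor of the fetal muscle program in mice, had 185 ± 26.3 FPKM in DM, against 64.4 ± 2.98 FPKM in PM (log2 fold change 1.43, with an SE of 0.102, edgeR adjusted p = 4.28e-07). TEAD1, which binds the promoters of muscle genes, had 48.9 ± 5.64 FPKM in DM, against 18.2 ± 5.47 FPKM in PM, a rise of 1.34 on the log2 scale. The homeobox gene PITX3 (20.4 ± 0.251 in DM and 49.5 ± 1.83 FPKM in PM), which acts in muscle precursors, was lower. SRF, the factor of actin and muscle promoters, had 49.4 ± 2.22 FPKM in DM, against 73.4 ± 6.24 FPKM in PM, a log2 fold change of -0.67 (edgeR adjusted p = 5.92e-06). The partners of the myogenic factors also moved apart, TCF3 with a log2 fold change of 0.62 (edgeR adjusted p = 3.46e-06) and TCF12 with one of -0.31 (edgeR adjusted p = 0.000579).

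Several repressors of basic helix-loop-helix proteins were lower. In the list of ID, HES and related repressors, 1 was called higher and 4 lower of 6 tested, with a median log2 fold change of -1.15. Over all tested genes, 35.9% were called higher and 35.6% lower. The list was fixed at 17 names and the files held 7 matching genes, so it covers the family in part. ID4 had 147, 148 and 129 FPKM in DM, against 896, 1006 and 1002 FPKM in PM, a 7.32-fold lower level without overlap between the groups (log2 fold change -2.87, with an SE of 0.0816, edgeR adjusted p = 6.24e-11). ID2 had 27.6, 29.8 and 28.3 FPKM in DM, against 172, 172 and 174 FPKM in PM, and the pattern was the same (log2 fold change -2.69, with an SE of 0.0588, edgeR adjusted p = 1.25e-11). HEYL, a target of Notch signalling, had 4.12 ± 0.343 in DM and 10.46 ± 0.511 FPKM in PM, and TWIST1, a repressor of mesodermal factors, had 24.6 ± 1.78 in DM and 41.8 ± 2.32 FPKM in PM, with log2 fold changes of -1.43 (edgeR adjusted p = 1.61e-06) and -0.86 (edgeR adjusted p = 2.5e-06). ZEB1, a zinc finger repressor, was the exception and rose to 46.9 ± 2.56 FPKM in DM, against 21.6 ± 2.23 FPKM in PM. The files pair no gene with ID1 or ID3, which were not analysed here.

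**Figure D2:**
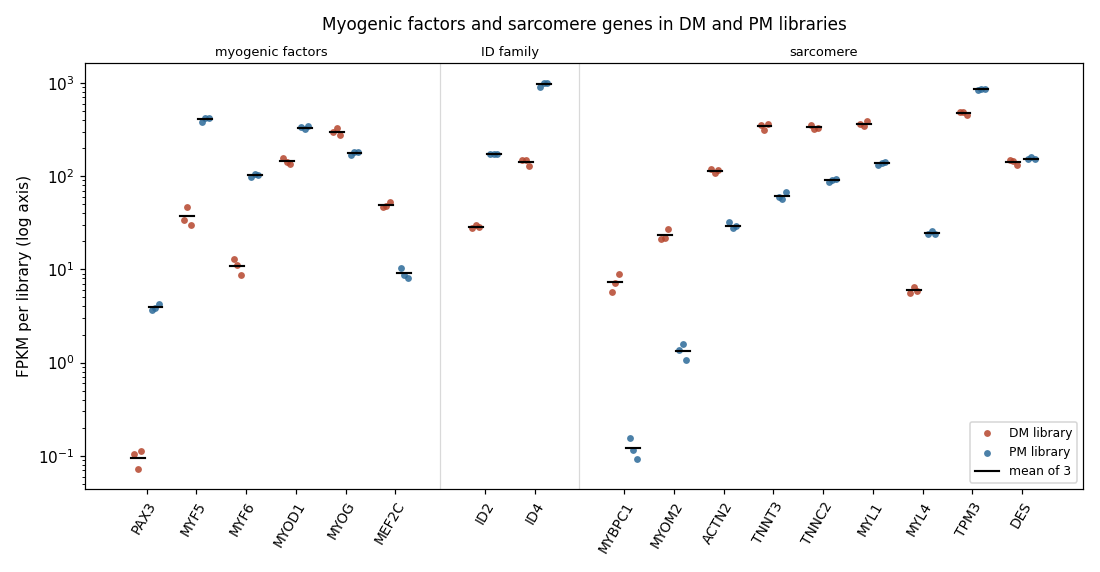
FPKM of myogenic factors, ID genes and sarcomere genes in each of 3 DM (left of each pair) and 3 PM libraries, on a log axis, with bars at the means. No gene drawn overlaps between the groups. Over all tested genes, the 3 DM values lay above the 3 PM values for 41.9% and below them for 33.1%. PAX3, MYF5, MYF6, MYOD1, ID2, ID4, MYL4, TPM3 and DES lie lower in all DM libraries, DES by the least, and the other genes drawn lie higher.

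Thick and thin filament genes of the sarcomere were mostly higher in DM. Among thick filament and M-band genes, 16 were called higher and 2 lower of 22 tested, with a median log2 fold change of 1.03. Over all tested genes, 35.9% were called higher and 35.6% lower. With the gene length trend removed, 14 of the list were higher and 4 lower, with a median of 0.941. MYBPC1, the slow-type myosin-binding protein C, had 5.77, 7.16 and 8.83 FPKM in DM, against 0.156, 0.117 and 0.0928 FPKM in PM. It was nearly silent in PM and detected in every DM library, a 56.0-fold difference (log2 fold change 5.81, with an SE of 0.233, edgeR adjusted p = 8.98e-10). MYOM2, an M-band protein that crosslinks thick filaments, had 20.9, 21.9 and 27.0 FPKM in DM, against 1.38, 1.59 and 1.07 FPKM in PM (log2 fold change 4.03, with an SE of 0.140, edgeR adjusted p = 8.71e-10). MYBPC3, the cardiac-type protein C, had 33.1 ± 2.85 in DM and 4.78 ± 0.548 FPKM in PM, a rise of 2.70 on the log2 scale. MYL1, the alkali light chain of fast muscle, had 358, 349 and 392 FPKM in DM, against 132, 138 and 143 FPKM in PM, so it was already expressed in PM and rose 2.49-fold. The ventricular myosin heavy chain gene MYH15 had 94.4 ± 5.55 FPKM in DM, against 63.9 ± 1.46 FPKM in PM, a smaller rise of 0.47 (edgeR adjusted p = 1.47e-05) that was lost with the gene length trend removed (0.03, edgeR adjusted p = 0.576). MYL4, the embryonic and atrial light chain, went the other way. It had 5.62, 6.52 and 5.93 FPKM in DM, against 23.7, 26.03 and 24.004 FPKM in PM, a 4.35-fold lower level in DM (log2 fold change -2.12, with an SE of 0.113, edgeR adjusted p = 9.74e-09). TRIM54, a titin-associated ubiquitin ligase, was lower as well (35.4 ± 1.77 in DM and 62.6 ± 5.73 FPKM in PM), while its relatives TRIM55 (47.0 ± 3.31 in DM and 19.5 ± 0.986 FPKM in PM) and TRIM63 (9.90 ± 1.38 in DM and 4.69 ± 0.708 FPKM in PM) were higher. UNC45B, a chaperone for myosin, was not called, at 9.38 ± 0.270 FPKM in DM, against 8.43 ± 0.347 FPKM in PM, a log2 fold change of 0.06 (edgeR adjusted p = 0.535).

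The remaining myosin genes were read one by one. The heavy chains of non-muscle myosin were higher in DM, MYH10 with 210.3 ± 21.3 in DM and 57.4 ± 3.39 FPKM in PM and MYH9 with 383 ± 2.19 in DM and 284 ± 23.5 FPKM in PM, by 1.78 and 0.34 (edgeR adjusted p = 0.000362). With the gene length trend removed MYH9 was lower instead (-0.21, edgeR adjusted p = 0.0026). The sarcomeric chains MYH13 (1.38 ± 0.173 in DM and 0.268 ± 0.0490 FPKM in PM) and MYH7B (0.403 ± 0.120 in DM and 0.126 ± 0.0400 FPKM in PM) were higher at low levels. Of the light chains, MYL10 had 206, 178 and 159.97 FPKM in DM, against 41.6, 37.6 and 43.1 FPKM in PM, so all DM libraries stood above the PM libraries (4.17-fold), and MYL3, the slow and ventricular alkali chain, had 27.3 ± 2.78 FPKM in DM, against 14.6 ± 1.08 FPKM in PM. MYL6, the alkali chain of non-muscle and smooth muscle myosin, had 2379.6, 2319.5 and 2129 FPKM in DM, against 4101, 4279 and 4356 FPKM in PM, and every DM library was below every PM library (log2 fold change -0.99, with an SE of 0.0654, edgeR adjusted p = 6.14e-08). MYL9, the regulatory chain of the same myosins, was lower, with a log2 fold change of -0.53 (edgeR adjusted p = 0.000126). MYLK4, a myosin light chain kinase, had 11.3 ± 0.592 FPKM in DM, against 0.930 ± 0.316 FPKM in PM, a rise of 3.53 on the log2 scale. The files pair no gene with MYH1, MYH2, MYH3, MYH7, MYH8, MYLPF, TTN, TNNT2, ACTA1 or ACTC1, so the main sarcomeric heavy chains, titin and the sarcomeric actins were not analysed here, nor were PAX7, MKI67 or CDKN1C.

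In the thin filament list, 11 were called higher and 3 lower of 16 tested, with a median log2 fold change of 1.18. The troponins named here, which make contraction depend on calcium, were higher to differing extents. TNNT3, fast troponin T, had 357, 309 and 359.98 FPKM in DM, against 59.3, 57.5 and 67.6 FPKM in PM, a 5.21-fold rise (log2 fold change 2.38, with an SE of 0.0878, edgeR adjusted p = 7e-10). TNNC2, fast troponin C, had 351, 324 and 329.5 FPKM in DM, against 87.0, 91.3 and 92.8 FPKM in PM, and again no DM library overlapped a PM library (log2 fold change 1.79, with an SE of 0.0647, edgeR adjusted p = 3.72e-10). The slow-type members rose too, TNNI1 with 565 ± 41.6 in DM and 207 ± 15.7 FPKM in PM and TNNC1 with 262 ± 9.11 in DM and 109 ± 4.06 FPKM in PM. TNNI2, fast troponin I, was abundant in both groups, with 393 ± 10.7 in DM and 294 ± 15.98 FPKM in PM, and rose by 0.32 (edgeR adjusted p = 0.000691). Capping and nucleating proteins of the thin filament were higher as well. TMOD1 had 35.7 ± 3.26 in DM and 6.82 ± 0.908 FPKM in PM, LMOD3 had 9.24 ± 0.228 in DM and 1.90 ± 0.497 FPKM in PM and LMOD2 had 37.4 ± 6.49 in DM and 20.7 ± 0.276 FPKM in PM. The tropomyosins differed from the troponins. TPM3 had 491, 486 and 457 FPKM in DM, against 848, 870.2 and 870.4 FPKM in PM, and TPM1 had 1641 ± 30.9 FPKM in DM, against 2151 ± 32.3 FPKM in PM, with log2 fold changes of -0.947 (edgeR adjusted p = 3.52e-08) and -0.49 (edgeR adjusted p = 4.81e-06). TPM2 was not called, at 344 ± 12.8 FPKM in DM, against 324 ± 14.4 FPKM in PM, with a log2 fold change of -0.01 (edgeR adjusted p = 0.929), and was lower with the gene length trend removed (-0.36, edgeR adjusted p = 0.000764). TPM1 and TPM3 also give non-muscle isoforms, which these gene-level counts do not separate.

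Among Z-disc and costamere genes, 16 were called higher and 9 lower of 30 tested, with a median log2 fold change of 0.31, which was 0.133 with the gene length trend removed. ACTN2, the alpha-actinin that anchors thin filaments in the Z-disc, had 119, 109 and 115 FPKM in DM, against 31.9, 27.6 and 29.2 FPKM in PM, a 3.63-fold rise (log2 fold change 1.86, with an SE of 0.0687, edgeR adjusted p = 4.6e-10). MYOZ1 (27.2 ± 0.927 in DM and 3.53 ± 0.393 FPKM in PM) and MYOT (11.5 ± 0.313 in DM and 1.89 ± 0.137 FPKM in PM), both Z-disc proteins, and KLHL31 (21.7 ± 1.86 in DM and 3.22 ± 0.297 FPKM in PM), a muscle kelch protein, rose by 2.84, 2.52 and 2.66 on the log2 scale. CAPN3, the muscle calpain, had 7.25 ± 0.127 in DM and 1.77 ± 0.170 FPKM in PM. Members that fell included CSRP3, the muscle LIM protein, with 6.09, 4.17 and 3.36 FPKM in DM, against 20.1, 19.7 and 18.7 FPKM in PM. The small heat shock protein HSPB7 had 28.2 ± 3.94 FPKM in DM, against 81.4 ± 7.51 FPKM in PM, and the stretch-responsive ANKRD1 had 309 ± 14.996 FPKM in DM, against 388 ± 0.694 FPKM in PM. DES had 149, 145 and 133 FPKM in DM, against 151, 158 and 154 FPKM in PM, a difference of -0.21 (edgeR adjusted p = 0.00878). That call was lost on log2(FPKM + 1) (-0.12, limma adjusted p = 0.0809) and with the gene length trend removed (-0.04, edgeR adjusted p = 0.479).

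Genes that couple excitation to contraction rose or did not pass the test. In that list, 13 were called higher and 0 lower of 19 tested, with a median log2 fold change of 0.51. PVALB, the calcium buffer of fast fibres, had 20.9, 30.8 and 26.4 FPKM in DM, against 1.08, 0.721 and 1.59 FPKM in PM, a 20.8-fold rise (log2 fold change 4.38, with an SE of 0.235, edgeR adjusted p = 1.61e-08). The subunits of the voltage sensor in the T-tubule rose together, CACNA1S with 3.48 ± 0.309 in DM and 0.807 ± 0.0714 FPKM in PM and CACNA2D1 with 5.61 ± 0.927 in DM and 1.24 ± 0.237 FPKM in PM. CASQ2, a calcium store protein of the sarcoplasmic reticulum, had 62.3 ± 4.32 FPKM in DM, against 17.7 ± 1.10 FPKM in PM, and the triad protein TRDN had 7.90 ± 1.68 FPKM in DM, against 1.51 ± 0.0937 FPKM in PM. The muscle sodium channel SCN4A was low in both groups, at 1.34 ± 0.0287 FPKM in DM, against 0.296 ± 0.0502 FPKM in PM. The calcium pump ATP2A2 rose by 0.23 (edgeR adjusted p = 0.0032), a call lost with the gene length trend removed (-0.07, edgeR adjusted p = 0.25).

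Among genes of the neuromuscular junction, 10 were called higher and 4 lower of 18 tested, with a median log2 fold change of 0.56. With the gene length trend removed, 9 were higher and 7 lower, with a median of 0.399. The acetylcholine receptor subunits named here were higher in DM. CHRND had 22.95, 21.05 and 21.7 FPKM in DM, against 4.96, 7.07 and 6.32 FPKM in PM, CHRNG had 17.4 ± 1.21 in DM and 7.47 ± 0.563 FPKM in PM and CHRNA1 had 110.1 ± 2.95 in DM and 61.5 ± 0.951 FPKM in PM, with log2 fold changes of 1.74, 1.13 and 0.74. RAPSN, which clusters the receptor, and MUSK, the receptor kinase of agrin signalling, had 26.1 ± 0.256 in DM and 12.5 ± 0.941 FPKM in PM and 16.1 ± 2.19 in DM and 9.32 ± 0.648 FPKM in PM. AGRN, which encodes agrin itself, went down, with 2.34, 3.21 and 2.88 FPKM in DM, against 8.66, 7.78 and 7.66 FPKM in PM (log2 fold change -1.61, with an SE of 0.104, edgeR adjusted p = 5.12e-08). LRP4, the agrin receptor, was lower, with a log2 fold change of -0.58 (edgeR adjusted p = 0.00119).

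The fusion and cell surface list did not lean strongly, as 13 were called higher and 8 lower of 29 tested, with a median log2 fold change of 0.12. TMEM8C, also named myomaker, the membrane protein needed for myoblast fusion, had 87.1, 91.3 and 82.1 FPKM in DM, against 69.7, 72.7 and 71.7 FPKM in PM. It was already abundant in PM and differed by 0.19 (edgeR adjusted p = 0.0177), a call lost without DM replicate 2 or PM replicate 1 (edgeR adjusted p = 0.0765 and 0.0543). The mesenchymal cadherin CDH11 had 259 ± 23.6 FPKM in DM, against 46.5 ± 5.24 FPKM in PM, and the membrane repair protein DYSF had 28.3 ± 1.54 FPKM in DM, against 7.69 ± 0.528 FPKM in PM, both higher in DM. The cadherins CDH15 and CDH2 were not called, with log2 fold changes of -0.16 (edgeR adjusted p = 0.172) and -0.13 (edgeR adjusted p = 0.0646). CDH15 was called lower without PM replicate 1 (edgeR adjusted p = 0.0282) and CDH2 without DM replicate 1 (edgeR adjusted p = 0.0368) or with the gene length trend removed (-0.198, edgeR adjusted p = 0.00647). NCAM1 was lower, with a log2 fold change of -0.26 (edgeR adjusted p = 0.002), a call lost on log2(FPKM + 1) (limma adjusted p = 0.0517). MSTN, the secreted inhibitor of muscle growth, had 12.7, 12.8 and 12.7 FPKM in DM, against 4.20, 4.25 and 2.75 FPKM in PM, a 3.24-fold rise (log2 fold change 1.69, with an SE of 0.155, edgeR adjusted p = 1.1e-06). ANXA1, which binds membrane phospholipids, fell to 122 ± 4.13 FPKM in DM, against 404 ± 10.3 FPKM in PM.

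Genes of cell division were lower in DM. In the mitosis list all 43 tested members were called lower and 0 higher, with a median log2 fold change of -2.38, against 35.6% of all tested genes called lower. UBE2C, a conjugating enzyme of the anaphase-promoting complex, had 27.3, 25.7 and 21.1 FPKM in DM, against 298, 319 and 332 FPKM in PM, a 13.7-fold difference (log2 fold change -3.77, with an SE of 0.102, edgeR adjusted p = 4.65e-11). CDK1, the mitotic kinase, had 23.99, 26.2 and 23.5 FPKM in DM, against 212, 212 and 231 FPKM in PM (log2 fold change -3.25, with an SE of 0.0724, edgeR adjusted p = 1.32e-11). The survivin gene BIRC5 had 9.10 ± 1.02 in DM and 78.1 ± 4.06 FPKM in PM, CDC20 had 9.20 ± 0.940 in DM and 72.1 ± 1.04 FPKM in PM and AURKA had 5.32 ± 0.397 in DM and 39.6 ± 1.08 FPKM in PM. None of these reached 0 in DM, where CDK1, CCNB2 (30.8 ± 2.56 in DM and 122 ± 2.49 FPKM in PM) and CCNA2 (20.4 ± 1.03 in DM and 67.6 ± 2.57 FPKM in PM) still gave measurable levels.

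In the DNA replication list, 1 was called higher and 38 lower of 43 tested, with a median log2 fold change of -1.77. RRM2, a ribonucleotide reductase subunit made in S phase, had 10.1, 12.02 and 11.4 FPKM in DM, against 147, 143 and 142 FPKM in PM, a 13.7-fold lower level (log2 fold change -3.78, with an SE of 0.0701, edgeR adjusted p = 4.4e-12). TK1, thymidine kinase, had 10.47 ± 0.939 FPKM in DM, against 108 ± 3.64 FPKM in PM. The helicase subunits MCM2, MCM3, MCM5 and MCM6 had log2 fold changes between -2.94 and -2.001. PCNA, the sliding clamp, had 61.4, 80.8 and 82.0 FPKM in DM, against 266, 273 and 286 FPKM in PM. The member called higher was DNMT1, the maintenance methyltransferase, with 39.3 ± 1.82 FPKM in DM, against 23.6 ± 0.682 FPKM in PM.

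Genes of cell cycle exit and G1 control were divided, as 15 were called higher and 10 lower of 26 tested, with a median log2 fold change of 0.34. CDKN1A, the p21 inhibitor of cyclin-dependent kinases, had 121, 118 and 93.2 FPKM in DM, against 36.2, 39.7 and 39.4 FPKM in PM, a 2.70-fold rise without overlap (log2 fold change 1.43, with an SE of 0.102, edgeR adjusted p = 4.13e-07). CDKN1B, the p27 inhibitor, had 144 ± 10.04 FPKM in DM, against 78.5 ± 1.56 FPKM in PM. The p53 target genes MDM2 (59.9 ± 4.16 in DM and 18.2 ± 2.89 FPKM in PM) and CCNG1 (328 ± 18.2 in DM and 103 ± 0.849 FPKM in PM) were higher too. CCND2, a D-type cyclin, had 58.5 ± 0.471 FPKM in DM, against 16.5 ± 1.61 FPKM in PM, while CCND3, another D-type cyclin, was lower at 24.7 ± 1.70 FPKM in DM, against 45.7 ± 0.806 FPKM in PM. RB1, the retinoblastoma gene, had 22.01 ± 1.07 FPKM in DM, against 34.8 ± 2.14 FPKM in PM and its relative RBL1 had 7.02 ± 0.870 FPKM in DM, against 15.5 ± 1.11 FPKM in PM, both lower. CDKN2C, the p18 inhibitor, had 3.30 ± 0.353 FPKM in DM, against 16.5 ± 2.19 FPKM in PM.

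Among metabolic lists, the highest median belonged to serine synthesis, folate-linked one-carbon metabolism and amino acid supply. In that list, 18 were called higher and 3 lower of 21 tested, with a median log2 fold change of 1.499. PHGDH (ENSGALG00000002988, chromosome 8, 4264703 to 4268005, minus strand), the first enzyme of serine synthesis, had 1469, 1599 and 1359 FPKM in DM, against 33.6, 37.9 and 36.5 FPKM in PM. All 3 DM libraries exceeded the PM libraries by a wide margin, a 38.4-fold rise (log2 fold change 5.26, with an SE of 0.0880, edgeR adjusted p = 2.31e-12). The next enzymes of the same route rose as well, PSAT1 with 118 ± 4.61 in DM and 22.2 ± 0.385 FPKM in PM and PSPH with 62.7 ± 3.62 in DM and 11.1 ± 0.338 FPKM in PM, by 2.31 and 2.41 on the log2 scale. ALDH1L2, a mitochondrial folate enzyme, had 65.0, 64.9 and 65.4 FPKM in DM, against 2.53, 2.44 and 1.97 FPKM in PM (log2 fold change 4.73, with an SE of 0.0864, edgeR adjusted p = 4.34e-12). MTHFD2 and MTHFD1L, of the mitochondrial folate pathway, had 84.7 ± 2.22 in DM and 39.8 ± 0.586 FPKM in PM and 45.6 ± 3.21 in DM and 12.3 ± 1.29 FPKM in PM. The cytosolic folate enzymes MTHFD1 and SHMT1 were lower instead, with 15.99 ± 1.16 in DM and 18.2 ± 0.506 FPKM in PM and 4.78 ± 0.266 in DM and 10.9 ± 1.79 FPKM in PM, although MTHFD1 was not called on log2(FPKM + 1) (limma adjusted p = 0.0577). GOT1, cytosolic aspartate aminotransferase, was the third member called lower, with a log2 fold change of -0.298 (edgeR adjusted p = 0.00105).

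Amino acid transporters were part of the same group. SLC7A11, which imports cystine, had 17.4, 16.2 and 15.9 FPKM in DM, against 1.24, 0.676 and 1.23 FPKM in PM (log2 fold change 3.86, with an SE of 0.175, edgeR adjusted p = 2.38e-09). SLC7A5, the light chain of a transporter for large neutral amino acids, had 215, 213 and 193 FPKM in DM, against 21.8, 20.5 and 18.04 FPKM in PM, a 9.66-fold rise. SLC1A4, a carrier of neutral amino acids such as serine and alanine, had 119 ± 1.95 in DM and 17.6 ± 2.04 FPKM in PM, and ASNS, asparagine synthetase, had 372 ± 8.32 in DM and 124 ± 2.36 FPKM in PM. Several of these genes are targets of ATF4, the factor of the integrated stress response. ATF4 itself had 945 ± 87.7 FPKM in DM, against 620.2 ± 27.4 FPKM in PM, a rise of 0.51 (edgeR adjusted p = 8.14e-05). In the list of unfolded protein and integrated stress genes, 13 were called higher and 10 lower of 24 tested, with a median log2 fold change of 0.18. CHAC1, an ATF4 target that degrades glutathione, had 222, 180.2 and 149 FPKM in DM, against 18.2, 20.02 and 17.5 FPKM in PM (log2 fold change 3.21, with an SE of 0.161, edgeR adjusted p = 8.68e-07). DDIT4, an inhibitor of mTOR signalling, had 995 ± 187 FPKM in DM, against 191 ± 14.4 FPKM in PM. Chaperones and folding enzymes of the endoplasmic reticulum were divided. HSPA5 (575 ± 35.4 in DM and 634 ± 15.4 FPKM in PM), HSP90B1 (271 ± 13.7 in DM and 340.3 ± 5.24 FPKM in PM), CALR (709 ± 47.7 in DM and 973 ± 70.9 FPKM in PM) and MANF (236 ± 14.4 in DM and 468 ± 17.7 FPKM in PM) were all called lower, HSPA5 no longer so on log2(FPKM + 1) (limma adjusted p = 0.0515). DNAJC3, DNAJB9 and PDIA6, from the same list, were called higher, with log2 fold changes of 0.45 (edgeR adjusted p = 1.1e-05), 0.22 (edgeR adjusted p = 0.0228) and 0.14 (edgeR adjusted p = 0.0466). The DNAJC3 call was lost with the gene length trend removed (edgeR adjusted p = 0.068). The DNAJB9 call was lost without DM replicate 1, PM replicate 1 or PM replicate 3 (edgeR adjusted p = 0.0696, 0.0526 and 0.085), and the PDIA6 call without DM replicate 3 or any 1 PM replicate (edgeR adjusted p = 0.114, 0.0555, 0.118 and 0.133) and with the gene length trend removed (edgeR adjusted p = 0.0756).

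**Figure D3:**
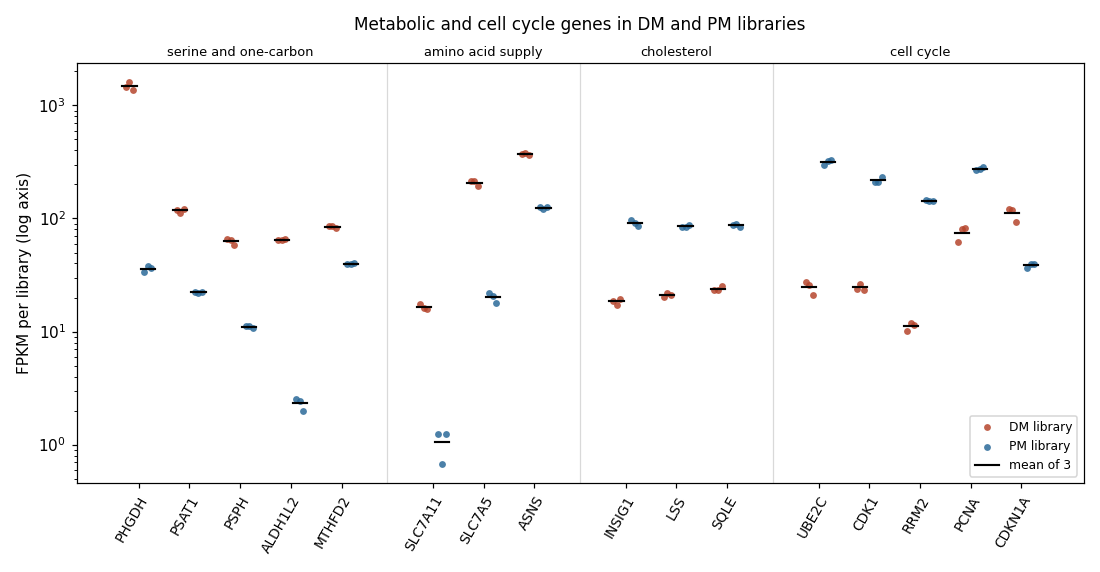
FPKM of serine, amino acid, cholesterol and cell cycle genes in each of 3 DM (left of each pair) and 3 PM libraries, on a log axis, with bars at the means. The DM libraries lie above the PM libraries for the serine and amino acid genes and CDKN1A, and below them for the cholesterol genes, UBE2C, CDK1, RRM2 and PCNA.

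Cholesterol genes were lower in DM. Of 17 tested members of the synthesis and uptake list 17 were called lower and 0 higher, with a median log2 fold change of -1.63. INSIG1, a sterol sensor that holds back SREBP factors and is itself their target, had 18.8, 17.03 and 19.5 FPKM in DM, against 97.7, 91.8 and 86.5 FPKM in PM (log2 fold change -2.41, with an SE of 0.0701, edgeR adjusted p = 6.77e-11). LSS, lanosterol synthase, had 20.03, 21.8 and 20.99 FPKM in DM, against 84.3, 84.1 and 86.8 FPKM in PM, and SQLE, squalene epoxidase, had 23.8 ± 1.08 in DM and 86.7 ± 2.37 FPKM in PM. HSD17B7, a late enzyme of the route, had 15.7 ± 0.622 FPKM in DM, against 57.4 ± 3.20 FPKM in PM. SREBF2, the factor that drives these genes, had 50.4 ± 3.44 FPKM in DM, against 92.9 ± 4.23 FPKM in PM.

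Respiratory chain subunits encoded in the nucleus were lower. In that list 51 of 53 were called lower and 0 higher, with a median of -0.53. With the gene length trend removed, 44 were lower and 2 higher, with a median of -0.304. COX6B1, a subunit of cytochrome oxidase, had 384, 458 and 428 FPKM in DM, against 1041, 1014 and 981 FPKM in PM, and CYCS, cytochrome c, had 98.8 ± 3.55 FPKM in DM, against 236 ± 0.917 FPKM in PM, falls of 2.55-fold and 2.55-fold. ATP5I, an ATP synthase subunit, had 157 ± 18.6 FPKM in DM, against 436 ± 17.2 FPKM in PM. Transcripts encoded in the mitochondrial genome did not move with them. Of 13 tested, 4 were called higher and 2 lower, with a median of 0.04. MT-CO1 was not called, at 0.16 (edgeR adjusted p = 0.334), and MT-CO2 was lower, with a log2 fold change of -0.46 (edgeR adjusted p = 0.00245). With the gene length trend removed the list had 7 members higher and 0 lower, and MT-CO2 was not called (edgeR adjusted p = 0.2). ND6, the gene on the other strand of the mitochondrial genome, had 904 ± 185 FPKM in DM, against 234 ± 26.5 FPKM in PM, and reads from the 2 strands cannot be told apart here because strand use in counting is not given in the sources. The share of reads from mitochondrial genes was 3.08% to 4.25% in DM and 3.03% to 3.39% in PM.

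Glycolysis genes went both ways, as 9 were called higher (42.9%) and 7 lower (33.3%) of 21 tested, with a median log2 fold change of 0.25. These shares were near those over all tested genes, 35.9% and 35.6%. Of the muscle isozymes, ENO3, the muscle enolase, had 26.5 ± 1.53 FPKM in DM, against 9.93 ± 0.847 FPKM in PM, and PFKM, the muscle phosphofructokinase, had 19.9 ± 1.15 FPKM in DM, against 9.94 ± 0.265 FPKM in PM, both higher. The liver-type PFKL was lower at 13.8 ± 1.55 FPKM in DM, against 22.5 ± 0.891 FPKM in PM. ALDOC, an aldolase, had 596 ± 71.0 FPKM in DM, against 930.3 ± 33.4 FPKM in PM and was lower, while GAPDH was not called, with a log2 fold change of 0.02 (edgeR adjusted p = 0.739), though it was called higher with the gene length trend removed (0.187, edgeR adjusted p = 0.00324). Genes of muscle energy reserve leaned upward, as 12 were called higher and 3 lower of 20 tested, with a median log2 fold change of 0.698. FABP3, the fatty acid carrier of muscle, had 194, 207 and 195 FPKM in DM, against 70.7, 76.1 and 75.6 FPKM in PM, a 2.50-fold rise. AMPD1, the AMP deaminase of skeletal muscle, had 4.30 ± 0.210 FPKM in DM, against 0.678 ± 0.0670 FPKM in PM. PPARGC1A, a coactivator of mitochondrial genes, was low in both groups, at 1.14 ± 0.155 FPKM in DM, against 0.147 ± 0.0441 FPKM in PM. CKB, the brain-type creatine kinase, fell to 144 ± 7.53 FPKM in DM, against 358 ± 11.1 FPKM in PM (log2 fold change -1.41, with an SE of 0.0601, edgeR adjusted p = 1.38e-09). The files pair no gene with CKM, the muscle form, which was not analysed here.

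Proteasome and heat shock genes were mostly lower in DM, where 35.6% of all tested genes were called lower and 35.9% higher. In the proteasome list, 2 were called higher and 30 lower of 33 tested, with a median log2 fold change of -0.802, and no member changed by more than 2.11-fold. PSMD3, a subunit of the regulatory particle, had 91.9 ± 5.23 FPKM in DM, against 182 ± 6.72 FPKM in PM, and PSMB2, a subunit of the core, had 127 ± 4.84 FPKM in DM, against 241 ± 10.02 FPKM in PM. Chaperones were more often lower than higher. In the heat shock list, 5 were called higher and 13 lower of 21 tested, with a median log2 fold change of -0.43. All 7 tested subunits of the CCT chaperonin, which folds actin and tubulin, were called lower, such as CCT8 with 163 ± 11.3 in DM and 259 ± 5.28 FPKM in PM and TCP1 with 220.3 ± 6.73 in DM and 366 ± 6.90 FPKM in PM. SERPINH1, the collagen chaperone, and HSPA9, the mitochondrial form of HSP70, had 820.3 ± 55.5 in DM and 407 ± 8.49 FPKM in PM and 326 ± 4.72 in DM and 176 ± 4.85 FPKM in PM and were higher. The other members called higher were HSPD1, a mitochondrial chaperonin, and the cytosolic HSP90AB1 and DNAJB4, with log2 fold changes of 0.33 (edgeR adjusted p = 0.000784), 0.18 (edgeR adjusted p = 0.0165) and 0.31 (edgeR adjusted p = 0.0419). The HSP90AB1 call was lost without PM replicate 2 (edgeR adjusted p = 0.0702), and the DNAJB4 call without DM replicate 2 or 3 or PM replicate 2 or 3 (edgeR adjusted p = 0.0697, 0.128, 0.158 and 0.142). The proteolysis and autophagy list was mixed, as 11 were called higher and 16 lower of 33 tested, with a median log2 fold change of -0.20. With the gene length trend removed, 13 were higher and 15 lower, with a median of 0.00317. The ubiquitin ligase FBXO32, also named atrogin-1, had 12.01 ± 0.893 FPKM in DM, against 5.10 ± 0.190 FPKM in PM, and the autophagy kinase ULK1 had 11.8 ± 1.06 FPKM in DM, against 2.97 ± 0.229 FPKM in PM. The lysosomal proteases CTSK (218 ± 9.87 in DM and 687 ± 28.3 FPKM in PM) and CTSB (472 ± 14.03 in DM and 670.3 ± 26.05 FPKM in PM) were lower, as was the autophagy receptor SQSTM1 (42.3 ± 2.12 in DM and 108 ± 1.80 FPKM in PM).

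Ribosomal protein genes changed little. In that list, 9 were called higher and 27 lower of 66 tested, with a median log2 fold change of -0.10, so 30 of the tested members were not called. With the trend of fold change over gene length removed, 33 were higher and 9 lower with a median of 0.15, so the direction of this list depends on that setting. The trend is described at the end.

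Secreted signals and their receptors showed large single changes within lists that leaned little. In the TGF-beta and BMP list, 14 were called higher and 15 lower of 33 tested, with a median log2 fold change of -0.15. TGFB1, the founding ligand, had 194, 172 and 134 FPKM in DM, against 511, 543 and 577 FPKM in PM (log2 fold change -1.80, with an SE of 0.138, edgeR adjusted p = 5.98e-06). TGFB3 had 197 ± 5.98 FPKM in DM, against 491 ± 16.98 FPKM in PM, and TGFBI, a matrix protein induced by TGF-beta, had 191 ± 16.8 FPKM in DM, against 1045 ± 15.3 FPKM in PM. All 3 were lower. The BMP antagonists GREM1 (0.481 ± 0.234 in DM and 4.99 ± 1.39 FPKM in PM) and NOG (0.112 ± 0.142 in DM and 1.78 ± 0.387 FPKM in PM) fell to low levels, and the pseudoreceptor BAMBI had 6.91 ± 0.592 in DM and 40.4 ± 1.05 FPKM in PM. DCN, decorin, a matrix proteoglycan that binds TGF-beta, had 672 ± 51.5 FPKM in DM, against 299.6 ± 2.04 FPKM in PM and was higher.

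In the IGF list, 9 were called higher and 3 lower of 17 tested, with a median log2 fold change of 0.20. IGF1R, the receptor, had 13.1 ± 0.236 FPKM in DM, against 4.54 ± 0.612 FPKM in PM, and IGF2, a growth factor of differentiating myoblasts, had 30.8 ± 4.06 FPKM in DM, against 18.7 ± 2.30 FPKM in PM. The binding proteins diverged. IGFBP5, made by differentiating muscle cells, had 30.97, 20.9 and 17.7 FPKM in DM, against 7.998, 7.10 and 7.18 FPKM in PM, a rise of 1.55 (edgeR adjusted p = 6.67e-05). IGFBP2 had 19.4, 27.6 and 21.9 FPKM in DM, against 175, 185 and 188 FPKM in PM, and IGFBP4 had 134 ± 21.2 FPKM in DM, against 705 ± 48.6 FPKM in PM, both lower, by 8.51-fold and 5.60-fold.

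Among FGF, PDGF, EGF and HGF genes, 11 were called higher and 14 lower of 31 tested, with a median log2 fold change of -0.31. FGFR4, the FGF receptor of myoblasts, had 15.4, 18.3 and 13.7 FPKM in DM, against 63.9, 72.4 and 69.0 FPKM in PM (log2 fold change -2.21, with an SE of 0.101, edgeR adjusted p = 1.19e-08). HGF, the ligand that activates muscle precursors, had 11.6 ± 2.10 FPKM in DM, against 1.93 ± 0.108 FPKM in PM, and its receptor MET had 5.30 ± 0.258 FPKM in DM, against 13.7 ± 1.45 FPKM in PM, so ligand and receptor moved apart. The PDGF receptors PDGFRA (26.4 ± 3.98 in DM and 4.20 ± 1.007 FPKM in PM) and PDGFRB (23.5 ± 2.96 in DM and 8.26 ± 0.780 FPKM in PM), typical of mesenchymal cells, were higher, and the ligand PDGFB (5.86 ± 0.813 in DM and 33.2 ± 0.912 FPKM in PM) was lower. EGF had 3.87 ± 0.618 FPKM in DM, against 0.479 ± 0.0665 FPKM in PM, and HBEGF, another EGF receptor ligand, had 9.23 ± 0.583 FPKM in DM, against 34.9 ± 3.48 FPKM in PM.

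In the Wnt list, 9 were called higher and 14 lower of 29 tested, with a median log2 fold change of -0.17. SFRP2, a secreted Wnt antagonist, had 118, 108 and 166 FPKM in DM, against 5.99, 5.18 and 6.08 FPKM in PM, a 21.2-fold rise (log2 fold change 4.40, with an SE of 0.194, edgeR adjusted p = 8.42e-07). WNT5B had 7.71 ± 1.61 FPKM in DM, against 45.2 ± 3.54 FPKM in PM, and LGR5, a receptor of R-spondins, had 0.384 ± 0.134 FPKM in DM, against 5.38 ± 1.08 FPKM in PM. Both fell, as did the secreted antagonists FRZB (15.8 ± 1.60 in DM and 69.7 ± 0.449 FPKM in PM) and DKK3 (10.49 ± 0.769 in DM and 59.3 ± 2.71 FPKM in PM). In the Notch list, 6 were called higher (37.5%) and 4 lower (25%) of 16 tested, with a median log2 fold change of 0.15. Over all tested genes these shares were 35.9% and 35.6%. With the gene length trend removed, 5 Notch genes were higher and 7 lower with a median of -0.0397. NOTCH1 had 22.3 ± 0.757 FPKM in DM, against 9.12 ± 0.712 FPKM in PM, and LFNG, a glycosyltransferase that modifies Notch, had 26.4, 24.8 and 23.6 FPKM in DM, against 72.8, 91.0 and 82.2 FPKM in PM, lower by 3.51-fold.

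Immediate early genes, which respond to serum and handling, were mostly lower. In that list, 5 were called higher and 15 lower of 23 tested, with a median log2 fold change of -0.79. FOS had 7.07, 5.84 and 5.39 FPKM in DM, against 28.2, 34.8 and 31.9 FPKM in PM (log2 fold change -2.47, with an SE of 0.120, edgeR adjusted p = 7.9e-09). EGR1 had 48.0 ± 4.09 FPKM in DM, against 136 ± 6.22 FPKM in PM, CYR61 had 129.8 ± 3.77 FPKM in DM, against 539 ± 10.9 FPKM in PM and CTGF had 322 ± 12.3 FPKM in DM, against 794 ± 15.3 FPKM in PM. The 5 members called higher opposed them, a count that was 4 to 6 over the alternative fits. ATF3 and NR4A1 had log2 fold changes of 1.07 and 1.08. MYC and BTG2 had 0.66 (edgeR adjusted p = 4.41e-05) and 0.29 (edgeR adjusted p = 0.0208). PTGS2, the inducible cyclooxygenase, rose most. It had 203, 162 and 163 FPKM in DM, against 5.001, 5.59 and 4.99 FPKM in PM, a 31.7-fold rise (log2 fold change 4.99, with an SE of 0.115, edgeR adjusted p = 7.07e-11). In the interferon response list, 4 were called higher and 12 lower of 23 tested, with a median log2 fold change of -0.39. OASL had 18.3, 6.44 and 7.78 FPKM in DM, against 49.6, 56.8 and 54.3 FPKM in PM, and IRF7, a factor of interferon induction, had 5.54 ± 0.424 FPKM in DM, against 13.1 ± 0.460 FPKM in PM. DM replicates of OASL spread widely but stayed below PM.

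Collagens and other matrix genes of fibroblasts were higher in DM. In that list, 25 were called higher and 6 lower of 35 tested, with a median log2 fold change of 1.07. DPT (ENSGALG00000039376, chromosome 1, 83908116 to 83934219, plus strand), dermatopontin, a matrix protein, had 82.8, 77.5 and 81.4 FPKM in DM, against 0.680, 0.726 and 1.10 FPKM in PM, an 87.4-fold rise (log2 fold change 6.45, with an SE of 0.140, edgeR adjusted p = 1.25e-11). COL1A2, a chain of type I collagen, had 2370.3, 2261 and 2594 FPKM in DM, against 787, 770.5 and 771 FPKM in PM, and it was among the abundant transcripts of both groups (log2 fold change 1.54, with an SE of 0.0620, edgeR adjusted p = 8.98e-10). FBLN1, fibulin 1, had 164 ± 13.6 FPKM in DM, against 11.98 ± 1.64 FPKM in PM, MMP2, a gelatinase, had 1562 ± 47.3 FPKM in DM, against 256 ± 6.21 FPKM in PM and COL6A3 had 267 ± 27.8 FPKM in DM, against 65.7 ± 5.21 FPKM in PM. COL15A1, a chain of basement membrane zones, had 12.8 ± 1.78 FPKM in DM, against 1.55 ± 0.146 FPKM in PM. THBS2, thrombospondin 2, which stands in the tendon and cartilage list instead, had 132 ± 31.6 FPKM in DM, against 25.7 ± 4.05 FPKM in PM. Its DM libraries spread more than the PM libraries. The basement membrane chains COL4A1 (24.9 ± 4.55 in DM and 52.4 ± 5.11 FPKM in PM) and COL4A2 (19.05 ± 4.34 in DM and 41.8 ± 4.06 FPKM in PM) were lower, as was POSTN, periostin (68.6 ± 16.99 in DM and 363 ± 23.7 FPKM in PM). FN1 and COL5A1 were not called, with log2 fold changes of 0.03 (edgeR adjusted p = 0.768) and 0.02 (edgeR adjusted p = 0.746), and both were lower with the gene length trend removed (-0.64 each, edgeR adjusted p = 1.92e-07 and 5.06e-07). The list's summed level was 12564 to 13465 FPKM in DM, against 7337 to 7802 FPKM in PM. Fibroblasts and muscle cells both make several of these proteins, and the part of each cell type was not tested.

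The smooth muscle list was mixed, as 6 were called higher and 10 lower of 22 tested, with a median log2 fold change of -0.17. ACTA2, smooth muscle alpha-actin, also made by myofibroblasts and by immature skeletal muscle, had 1991, 1987 and 1800.2 FPKM in DM, against 289.6, 282 and 278 FPKM in PM (log2 fold change 2.67, with an SE of 0.0646, edgeR adjusted p = 2.35e-11). MYLK, myosin light chain kinase, had 26.5 ± 0.676 FPKM in DM, against 3.06 ± 0.0751 FPKM in PM and MYH11, smooth muscle myosin, had 6.18 ± 0.429 FPKM in DM, against 1.38 ± 0.169 FPKM in PM. CNN1, TAGLN and CSRP2 did not follow. CSRP2, a LIM protein, had 185, 216 and 199 FPKM in DM, against 1469.8, 1509.6 and 1553 FPKM in PM, an 8.07-fold lower level, TAGLN was not called, at -0.21 (edgeR adjusted p = 0.12), though it was called lower without DM replicate 1 (edgeR adjusted p = 0.00114), and CNN1 was lower, with a log2 fold change of -0.58 (edgeR adjusted p = 5.62e-05). Reads of actin genes may be shared between close paralogs, so the ACTA2 and ACTB values are uncertain to that extent.

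Markers of macrophages and other leukocytes were mostly lower. In that list, 2 were called higher and 24 lower of 31 tested, with a median log2 fold change of -1.398. C1QB, a chain of the complement protein C1q that macrophages make, had 23.9, 26.1 and 30.7 FPKM in DM, against 229, 228 and 234 FPKM in PM (log2 fold change -3.20, with an SE of 0.0816, edgeR adjusted p = 3.43e-11). Its partners C1QA (21.2 ± 1.80 in DM and 143 ± 8.72 FPKM in PM) and C1QC (20.5 ± 1.39 in DM and 167 ± 8.21 FPKM in PM) and the chemokine CCL4 (33.2 ± 4.69 in DM and 251 ± 5.33 FPKM in PM) fell with it. SPI1, the master factor of the myeloid lineage, had 16.1 ± 1.51 FPKM in DM, against 56.1 ± 1.66 FPKM in PM. IL18, an interleukin, went up, with 55.8, 49.4 and 53.2 FPKM in DM, against 3.94, 2.88 and 5.05 FPKM in PM (log2 fold change 3.62, with an SE of 0.159, edgeR adjusted p = 1.95e-09). The list's summed level was 489 to 519.6 FPKM in DM, against 1535 to 1618 FPKM in PM. CTSS stands in this list and also in the autophagy list, and IRF8 in this list and also in the interferon list. The part of macrophages in the falls of those lists was not tested.

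Melanocyte markers were lower or not called. In that list, 0 were called higher and 8 lower of 12 tested, with a median log2 fold change of -2.90. Most members were at low levels. With a minimum of 5 FPKM, 1 was higher and 1 lower of 2, with a median of -2.44. MLANA (ENSGALG00000019756, chromosome Z, 27814585 to 27819688, plus strand), a melanosome protein, had 5.36, 7.74 and 6.83 FPKM in DM, against 224, 211 and 237 FPKM in PM, a 35.998-fold lower level (log2 fold change -5.17, with an SE of 0.117, edgeR adjusted p = 1.48e-11). The list's summed level was 20.9 to 22.8 FPKM in DM, against 235 to 259 FPKM in PM, of which MLANA made up most in PM. The pigment enzyme gene DCT had 0 reads over the DM libraries and 62, 63 and 75 reads in PM replicates 1 to 3. With the DM total set at a floor of 3 reads, DCT was at least 85.1-fold lower in DM. The neural crest and glial factor SOX10 had 0.0639, 0.0131 and 0.0412 FPKM in DM, against 4.64, 4.81 and 4.90 FPKM in PM, and NGFR, the neurotrophin receptor of such cells, had 0.246 ± 0.0407 FPKM in DM, against 4.60 ± 0.8501 FPKM in PM. Both stand in the neural and Schwann list, which was divided, with 7 called higher and 5 lower of 17 tested. The pigment cell factor MITF was not called, at 0.17 (edgeR adjusted p = 0.0924), but was higher on log2(FPKM + 1) (limma adjusted p = 0.0256), and it is also expressed in other cells.

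**Figure D4:**
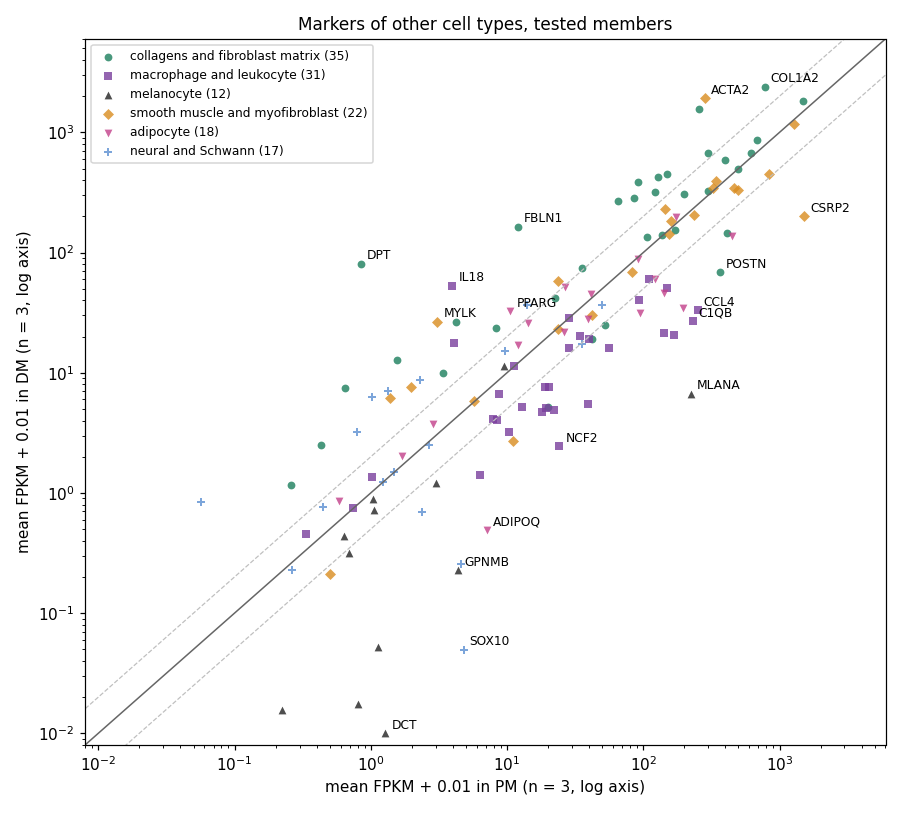
Mean FPKM in DM (vertical) against PM (horizontal), both with 0.01 added and on log axes, for tested markers of 6 other cell types, with 1 point per gene; the solid line marks equal levels and the dashed lines a 2-fold difference. Most macrophage and melanocyte markers lie below the line, and most matrix genes lie on or above it.

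Other lists of non-muscle markers were divided. In the neural and Schwann list, 7 were called higher and 5 lower of 17 tested, with a median log2 fold change of -0.06, and in the endothelium list, 6 were called higher and 3 lower of 14 tested, with a median log2 fold change of 0.21. These medians depended on members at low levels. With a minimum of 5 FPKM, the neural list had 5 higher and 2 lower of 7 with a median of 1.35, and the endothelium list had 5 higher and 1 lower of 6 with a median of 1.12. With no low-count filter the endothelium median was -0.42. The endothelial markers CDH5 and VWF were at or under 0.211 FPKM on average in both groups, and KDR and TEK were too low to test. CDH5 was called higher without PM replicate 2 only (edgeR adjusted p = 0.0419). LYVE1, a hyaluronan receptor of lymphatic endothelium and some macrophages, had 6.61 ± 1.28 FPKM in DM, against 0.753 ± 0.0461 FPKM in PM. Haemoglobin genes were almost absent. HBAA had 1 read over the DM libraries and 3 over the PM libraries, a ratio of 0.261 with an exact counting interval of 0.00498 to 3.25. HBE had 20 reads over the DM libraries and 11 over the PM libraries, a ratio of 1.42 with an interval of 0.651 to 3.29. Such intervals cover counting error only. In the erythroid list, 2 were called higher and 3 lower of 8 tested, with a median log2 fold change of -0.02, and in the epidermal list, 5 were called higher and 2 lower of 11 tested, with a median log2 fold change of 0.56. The epidermal count of higher genes was 2 without DM replicate 1 and 3 without PM replicate 1.

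In the adipocyte list, 4 were called higher and 8 lower of 18 tested, with a median log2 fold change of -0.05. PPARG, the master factor of fat cells, had 32.4 ± 2.17 FPKM in DM, against 10.6 ± 0.957 FPKM in PM, while ADIPOQ, adiponectin, had 0.477 ± 0.165 FPKM in DM, against 7.11 ± 0.518 FPKM in PM and FABP4, the fat cell fatty acid carrier, had 138 ± 29.0 FPKM in DM, against 447 ± 18.4 FPKM in PM. In the tendon and cartilage list, 9 were called higher and 14 lower of 25 tested, with a median log2 fold change of -0.947. With a minimum of 5 FPKM, 4 were higher and 4 lower of 10, with a median of -0.0104. EGR1, given above as an immediate early gene, also stands in this list and was lower (log2 fold change -1.60). The tendon factor SCX had 15.7 ± 1.67 FPKM in DM, against 3.84 ± 0.666 FPKM in PM and MKX had 23.7 ± 1.07 FPKM in DM, against 8.94 ± 2.16 FPKM in PM, both higher, while cartilage genes such as ACAN (0.170 ± 0.00813 in DM and 0.892 ± 0.0898 FPKM in PM) and COL9A1 (0.0573 ± 0.00755 in DM and 0.808 ± 0.379 FPKM in PM) were lower at low levels. SPP1 (ENSGALG00000010926, chromosome 4, 45974555 to 45977750, minus strand), osteopontin, a secreted protein of bone and macrophages, had 45.6, 44.4 and 42.3 FPKM in DM, against 1903, 2054 and 2077 FPKM in PM. It was among the abundant transcripts in PM and was 48.7-fold lower in DM (log2 fold change -5.61, with an SE of 0.0777, edgeR adjusted p = 1.03e-12).

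The largest changes over all genes with a symbol and at least 10 FPKM in a group took in several secreted proteins. The 10 largest rises were OSTN, DPT, SPON2, ABHD8, PHGDH, CLEC3B, PTGS2, ALDH1L2, JCHAIN and TCEA3, in that order. OSTN (ENSGALG00000007226, chromosome 9, 13761297 to 13772476, minus strand), musclin, a hormone secreted by muscle and bone, had 37.0, 47.9 and 37.5 FPKM in DM, against 0.344, 0.772 and 0.176 FPKM in PM, a 90.2-fold rise (log2 fold change 6.49, with an SE of 0.269, edgeR adjusted p = 1.13e-09). SPON2, an extracellular matrix protein, had 100.3, 78.7 and 76.8 FPKM in DM, against 1.22, 1.06 and 0.816 FPKM in PM (log2 fold change 6.29, with an SE of 0.168, edgeR adjusted p = 2.5e-10). CLEC3B, tetranectin, had 19.9 ± 1.70 FPKM in DM, against 0.501 ± 0.234 FPKM in PM. JCHAIN, the joining chain of immunoglobulins, had 28.8 ± 2.81 FPKM in DM, against 1.04 ± 0.198 FPKM in PM.

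In order of size, the 10 largest falls were TPPP3, CPM, SPP1, WISP2, MLANA, CCK, PRLH, LIPG, PCSK1 and ADAMDEC1. CPM, carboxypeptidase M, a membrane enzyme and here a gene symbol, had 1.91, 2.54 and 2.11 FPKM in DM, against 111, 103 and 104 FPKM in PM (log2 fold change -5.69, with an SE of 0.0949, edgeR adjusted p = 2.31e-12). TPPP3, a tubulin-binding protein, had 0.528 ± 0.253 FPKM in DM, against 35.9 ± 4.51 FPKM in PM. CCK, cholecystokinin, and PRLH, a neuropeptide, had 1.60 ± 0.330 in DM and 52.0 ± 4.91 FPKM in PM and 2.01 ± 0.317 in DM and 46.6 ± 4.14 FPKM in PM, and LIPG, endothelial lipase, had 15.5, 13.1 and 11.02 FPKM in DM, against 295, 279 and 271 FPKM in PM.

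Highly abundant transcripts also differed. FTH1, ferritin heavy chain, was the most abundant gene with a symbol in PM and ranked 6 in DM, with 3760.03, 3753 and 3772 FPKM in DM, against 12221, 13063 and 13501 FPKM in PM (log2 fold change -1.88, with an SE of 0.0619, edgeR adjusted p = 1.99e-10). ACTB, cytoplasmic beta-actin, had 3624, 3407 and 3353 FPKM in DM, against 7822, 7668 and 7897 FPKM in PM, a 2.40-fold lower level, and the cytoskeletal gene VIM, vimentin, had 2388 ± 64.8 FPKM in DM, against 3619 ± 92.3 FPKM in PM. EEF1A1, a translation elongation factor, had 6533 ± 458 FPKM in DM, against 4534 ± 156 FPKM in PM and was higher by 0.43 (edgeR adjusted p = 6.53e-05).

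Fold changes followed gene length. Among tested genes with at least 5 FPKM in a group, split into 8 bins of 1292 genes, the bin's median fold change on the log2 scale was -0.25 in the shortest bin (43 to 807 bases) and 0.40 in the longest (3966 to 20980 bases), and it increased from bin to bin. With the length implied by each gene's count and FPKM, the medians were -0.26 and 0.42. The share called higher was 27.1% in the shortest bin and 61.7% in the longest. Removing the trend changed the median of the nuclear respiratory list to -0.30, of the proteasome list to -0.62 and of the collagen list to 0.85. The mitosis list stayed at -2.43 and the cholesterol list at -1.61. The DM and PM tables also list different numbers of features, 26591 and 25950. Of the features without an Ensembl identifier, 982 were shared by name and had reads in both PM replicate 1 and DM replicate 1. Of these, 0 had the same length implied by count and FPKM. A processing batch and the groups therefore cannot be told apart.

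**Figure D5:**
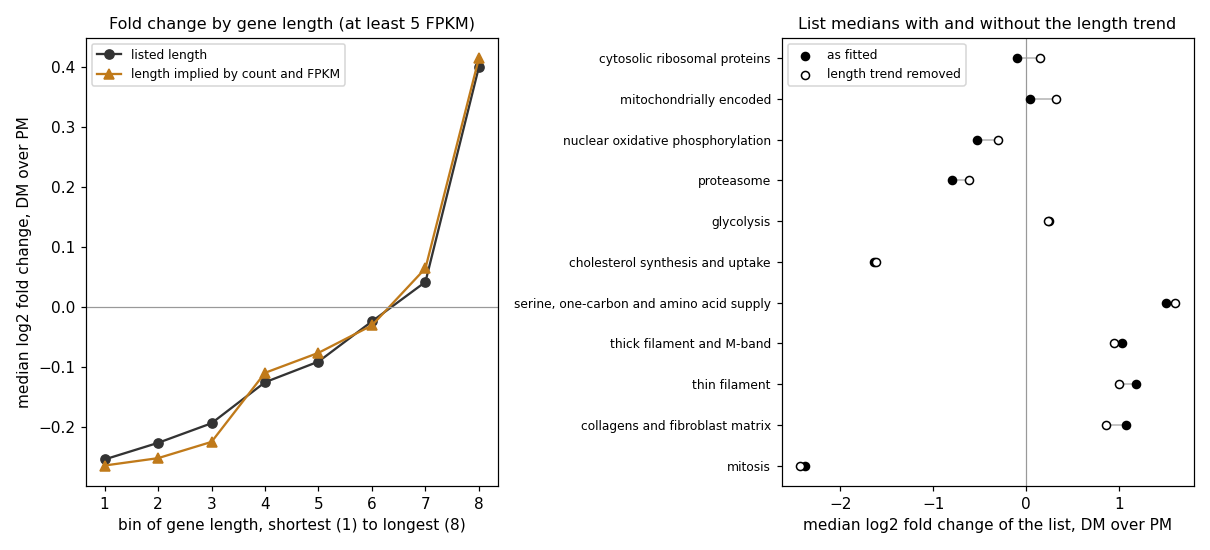
Left, median log2 fold change, DM over PM, in 8 bins of gene length from shortest to longest, for the listed length and the length implied by count and FPKM; right, list medians as fitted (filled) and with the length trend removed (open). The medians run from -0.25 to 0.40 over the bins of listed length, and the ribosomal list changes sign when the trend is removed.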

How the data were processed

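RNA-seq tables of 3 DM and 3 PM libraries were used. Per the submitters' processing notes, HISAT and HTSeq were used; their settings and versions, the build and annotation, and whether counting used strand, were not given in the sources used here. The deposited tables hold the authors' read counts per gene, unnormalized, and the authors' FPKM, scaled to gene length and to each table's own read total. Each DM table had 2 broken lines, which were dropped. The rows with an Ensembl identifier were kept, 24881 genes, of which the files pair 11078 with a symbol; other features, 1.66% to 2.12% of reads, were left out. Coordinates are those the files list. No reference sequence was used. Members and lists were chosen with earlier results of these data known.

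Counts were filtered (filterByExpr), normalized by TMM and tested two-sided with edgeR 4.0.16 (quasi-likelihood, robust, R 4.3.3), with Benjamini-Hochberg adjustment over 14235 genes and a threshold of 0.05. The SE of a log2 fold change is its size divided by the square root of F. The edgeR fit was also run on simulated counts in which far fewer genes were changed than were called here. That run therefore does not test the normalization under changes this wide. Alternatives were DESeq2 1.42.0 size factors and test, no low-count filter, a minimum of 5 FPKM, limma 3.58.1 on log2(FPKM + 1) and log2(FPKM + 0.1), removal of the gene length trend (lowess, span 0.3), a replicate block, and each library left out. Gene-level counts can mix reads of close paralogs, overlapping genes and antisense genes.

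The genes named were drawn from the 10 largest rises and 10 largest falls with a symbol and at least 10 FPKM in a group, up to 4 called members per list with at least 5 FPKM and the largest changes, fixed myogenic and contractile genes, the 10 most abundant genes per group, and genes with reads in one group alone; not every gene that this rule gives is printed, and further members were named after their values were seen, to describe a list. Replicates differed by more than sampling noise, with a chi-square per gene of 6.09 to 18.8, so all were kept as separate samples. A count of 0 allows up to 3 reads, 0.130 to 0.191 CPM in these libraries; floors and intervals cover counting error only. The labels do not pair replicate numbers across groups.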

Additional observations from a re-analysis of the deposited data

How the results depend on the processing

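Of 263 named genes, 239 kept direction and call in each of the 14 alternative fits that tested them. Genes under 5 FPKM in both groups were not part of the fit with that minimum. Genes called higher and lower were 5086 and 5089 with DESeq2 size factors, 4858 and 4902 with the DESeq2 test, 5571 and 5020 with no low-count filter, 3934 and 3882 with a minimum of 5 FPKM, 5669 and 4449 with limma on log2(FPKM + 1), 5668 and 4445 on log2(FPKM + 0.1) and 5416 and 4747 with the gene length trend removed, against 5104 and 5072 as reported. A 2-fold minimum left 2257 and 1729. Leaving out each library gave 4752 to 5099 higher and 4677 to 5018 lower. With a minimum of 5 FPKM, where fewer members were tested, lower members numbered 7 in the Wnt list, 1 in the melanocyte list and 4 in the tendon and cartilage list, and higher members 7 in the muscle energy list and 1 in the epidermal list. With the length trend removed, 9 ribosomal genes were lower and 7 mitochondrially encoded genes higher; the cause was not tested. Leaving out each library, the epidermal list had 2 to 5 higher members, and the difference between the longest and the shortest length bin, 0.65 as reported, was 0.58 to 0.69. Removing the length trend turned the sign of ATP2A2 (-0.072), COL5A1 (-0.64), FN1 (-0.64) and MYH9 (-0.21). TPM2 took the other sign with no low-count filter (0.022), a minimum of 5 FPKM (0.0495), limma on log2(FPKM + 1) (0.0885) and on log2(FPKM + 0.1) (0.0887). With each library left out, log2 fold changes ranged from -0.0492 to 0.0387 for TPM2, -0.00699 to 0.0658 for COL5A1, -0.0506 to 0.0884 for FN1, -0.0141 to 0.0589 for GAPDH and -0.0265 to 0.263 for MT-CO1, none of them called in those fits. The median over all tested genes moved by over 0.1 on the log2 scale only with no low-count filter, to 0.12, against 0.01 as reported.

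Some lists' median log2 fold changes changed sign or moved by over 1.5 times under at least 1 alternative. They ranged, over all alternatives, from 0.133 to 0.402 for Z-disc and costamere, 0.00317 to 0.217 for myoblast fusion and cell surface, -0.0397 to 0.273 for Notch pathway, 0.114 to 0.339 for IGF pathway, -0.256 to -0.0276 for TGF-beta and BMP pathway, -0.452 to -0.102 for the FGF group, -0.277 to -0.0752 for Wnt pathway, 0.322 to 0.520 for cell cycle exit and G1 control and -0.132 to 0.148 for cytosolic ribosomal proteins. The range was -0.574 to -0.304 for nuclear oxidative phosphorylation, -0.0435 to 0.319 for mitochondrially encoded, 0.157 to 0.333 for glycolysis, 0.379 to 0.898 for muscle energy reserve, 0.143 to 0.273 for unfolded protein and integrated stress, -0.840 to -0.501 for immediate early, -0.525 to -0.254 for interferon response, -0.300 to 0.00317 for muscle proteolysis and autophagy and -0.251 to -0.0669 for smooth muscle and myofibroblast. Among markers of other cells the range was -0.425 to 1.12 for endothelium, -0.281 to 0.183 for erythroid, -0.0718 to 1.35 for neural and Schwann, -2.98 to -0.595 for melanocyte, -0.297 to 0.0297 for adipocyte, 0.107 to 0.751 for epidermal and -0.972 to -0.0104 for tendon and cartilage. The cause was not tested.

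The deviations of same-numbered DM and PM libraries from their group means correlated at -0.0227, 0.111 and -0.130 across genes. DM replicate 1 correlated best with PM replicate 3 (0.156). With so few libraries per group, these values cannot show whether a replicate number marks a shared culture or embryo. A fit with the replicate block gave 4813 genes higher and 4781 lower, and the calls of DNAJB4, DNAJB9 and PDIA6 were lost (edgeR adjusted p = 0.0547, 0.0567 and 0.0866). Depth limited genes at a few reads, such as HBAA, for which a difference was not detectable.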

Other observations

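Genes of the W chromosome, which female birds carry, were mostly higher in DM. Of 27 tested, 22 were called higher and 1 lower, with a median log2 fold change of 1.26. They took 0.0410%, 0.0399% and 0.0425% of Ensembl gene reads in DM, against 0.0173%, 0.0162% and 0.0158% in PM. On the Z chromosome 201 genes were called higher and 238 lower of 632 tested, with a median of -0.07. Over all tested genes 35.9% were called higher and 35.6% lower. The labels give no sex of the embryos, this chromosome was looked at after its values were seen, and the part of embryo sex in the other results was not tested.

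Some genes had reads in one group alone. With at least 30 reads in that group, 33 genes had reads in DM only, 10 of them with a symbol, and 7 in PM only, 3 of them with a symbol. BRN3, a POU-domain factor of sensory neurons, had 161, 107 and 84 reads in DM replicates 1 to 3 and 0 in PM, and was at least 92.0-fold higher in DM, with 3 reads as the floor of the PM total. KCNF1, a potassium channel subunit, had 335 reads in DM (at least 87.5-fold higher), and VEGFD, a growth factor of lymphatic vessels, had 142 (at least 37.1-fold higher). S100A8, a calcium-binding protein of myeloid cells, had 0 reads in DM and 110 in PM (at least 46.8-fold lower). POU4F1, of the same family as BRN3, had 0 reads in DM and 8, 12 and 16 in PM replicates 1 to 3 (at least 15.3-fold lower), and reads of paralogs may be mixed in counting.

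Genes that the files pair with no symbol made up 4726 of those tested, and 3136 of them were called, a share below the 71.5% over all tested genes. They took 17.5% of reads in DM and 16.9% in PM.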
